A study of Mus musculus with 6 samples.

Results

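The genes described here are 34 mouse genes that carry pyruvate into mitochondria, oxidize it, run the tricarboxylic acid (TCA) cycle and form the malate-aspartate shuttle. They were taken by name from the 23337 genes of the deposited table, where Mpc1 and Mpc2 appear under their older symbols, Brp44l and Brp44. Their RNA was measured in cardiomyocytes (CMs) of wildtype mice at postnatal day 14 (P14). At P1 the pups received AAV9-cTNT-SRF-2A-GFP (SRF-OE) or the control virus AAV9-cTNT-GFP (GFP), each at 5e8 vg (vector genomes) per g. SRF, serum response factor, is a transcription factor of muscle genes, and the comparison addresses what an excess of it does to maturing CMs. The cardiac troponin T promoter (cTNT) restricts both viruses to CMs, the dose was set so that only a part of the CMs is transduced, and GFP+ cells were sorted after collagenase perfusion. The sources used here do not give how many hearts went into a library, so p-values measure the spread between libraries.

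In CMs, pyruvate from glycolysis and lactate crosses the inner mitochondrial membrane through the MPC1-MPC2 carrier. The pyruvate dehydrogenase complex (PDC) turns it into acetyl-CoA; pyruvate dehydrogenase kinases (PDKs) switch the complex off by phosphorylation and the PDP phosphatases switch it on again. The cycle oxidizes acetyl-CoA to CO2 and passes electrons to the respiratory chain, and the malate-aspartate shuttle carries the electrons of cytosolic NADH inward. The postnatal heart is known for raising its oxidative capacity as it shifts from glycolysis toward fatty acid oxidation, and PDK4 is the kinase known to follow fatty acid supply.

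The labels list 3 libraries per group, but gene lengths fill the column named for SRF-OE replicate 1, so 5 libraries had counts, with totals of 14137433 to 23159631. The first column, headed Chr, holds gene symbols. Because these names sit over other kinds of values, the other names could be displaced by 1 column, which the headers alone do not settle. Replicates 2 and 3 of each group keep their group under either reading. Srf itself was at 360 and 748 CPM (reads of a gene relative to all counted reads, scaled by edgeR's TMM factors) in SRF-OE and at 67.3 and 85.1 CPM in GFP replicates 2 and 3. The library labelled GFP1 had 338 CPM of Srf, which goes against its label. Results of the tests are therefore given for the 5 libraries as labelled and, for the genes and lists the text turns on, also for the 4 libraries left without it, a choice made after its Srf level was seen. Replicate 2 of both groups had Xist at 147 and 88.8 CPM and the other libraries were under 1 CPM, so each group of the 4 libraries holds 1 library with Xist and 1 without.

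RNA of this pathway was at lower levels in SRF-OE for nearly every gene, with a median log2 fold change of -0.53 with 5 libraries. Of these differences 0 passed edgeR's adjusted cutoff with 5 libraries, and 2 passed without the library labelled GFP1. The 34 genes together took 3.03% and 2.68% of all counts in SRF-OE replicates 2 and 3. They took 3.81% and 3.79% in GFP replicates 2 and 3 and 3.24% in the library labelled GFP1. As summed CPM, SRF-OE held 27909 and 24994, GFP replicates 2 and 3 held 40485 and 42331, and the library labelled GFP1 held 31961. Both SRF-OE libraries were thus below all 3 GFP libraries, and the library labelled GFP1 lay between the groups. The means were 26450 ± 2060 CPM (SD, n = 2) and 38260 ± 5530 CPM (SD, n = 3), a log2 ratio of -0.52 (two-sided exact permutation p = 0.2, where 2 libraries against 3 cannot go below 0.1). Without the library labelled GFP1 the log2 ratio was -0.65 (exact p = 0.333, the smallest that 2 against 2 allows). In RNA from pools of sorted cells, fewer cells of a type and less RNA per cell cannot be told apart.

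**Figure D1:**
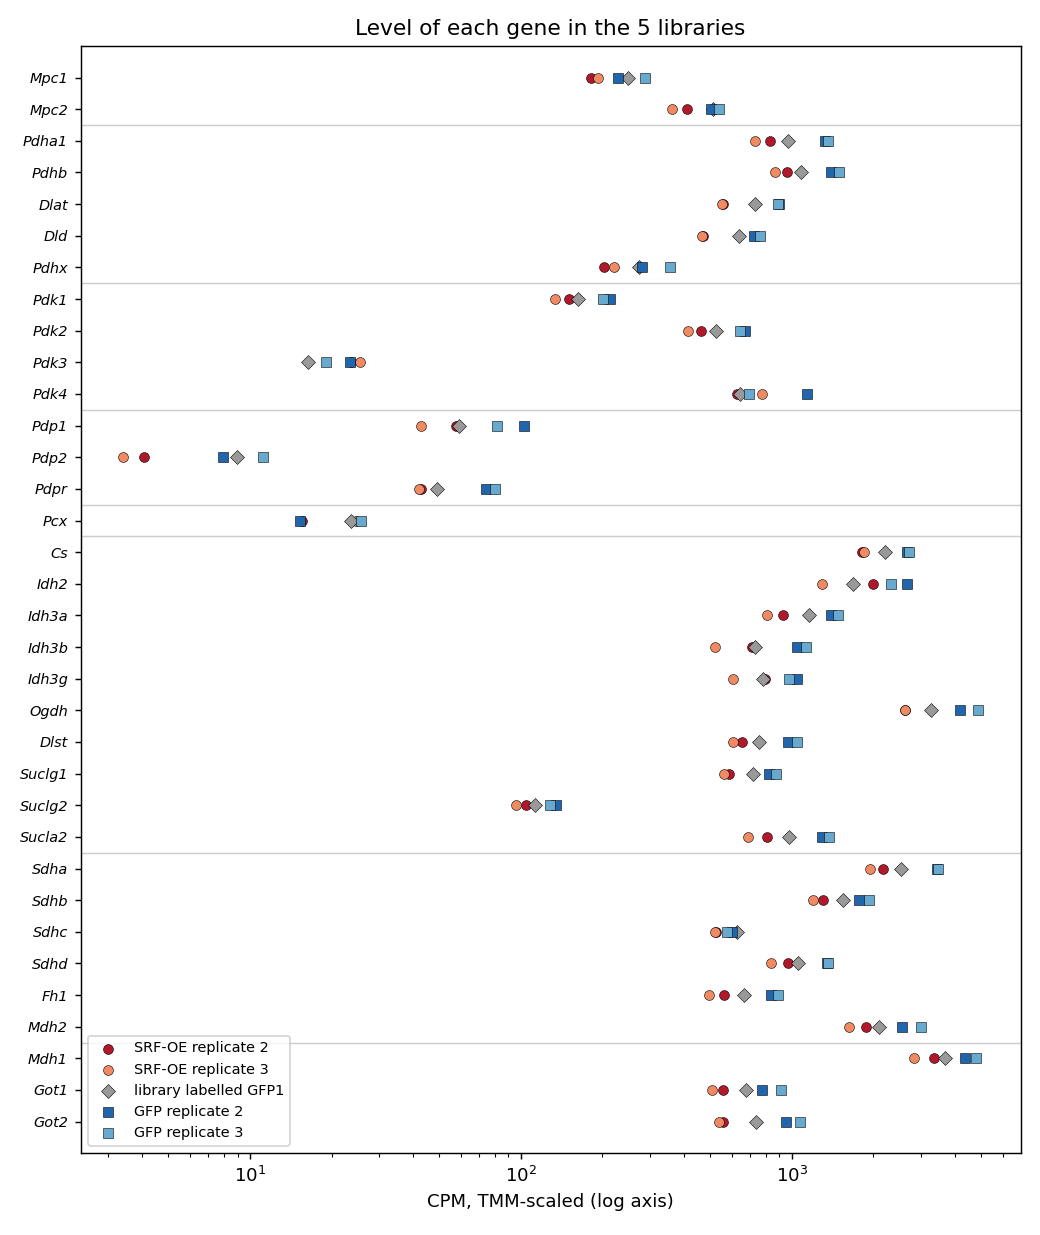
Level of each of the 34 genes in the 5 libraries, in TMM-scaled CPM on a log axis, with circles for SRF-OE, squares for GFP replicates 2 and 3 and a diamond for the library labelled GFP1. Gray lines separate the roles in the order of the text; both SRF-OE circles lie left of all 3 GFP marks for 29 of the 34 genes.

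Gene by gene, all 34 passed edgeR's filter on low counts, with 70 to 94806 counts per library. With the 5 libraries, 33 had a negative log2 fold change (SRF-OE over GFP) and only Pdk3 a positive one; the median was -0.53, beside 0.03 for all 13754 genes tested. With no scaling factor on the total counts, the median of all genes moved up by 0.18 to 0.21 and that of the 34 genes to -0.33, so the distance between them was -0.55 instead of -0.56; Pcx then turned positive as well. At an adjusted p under 0.05 from edgeR's quasi-likelihood test with Benjamini-Hochberg adjustment, 0 of the 34 were called in either direction, and so were 0% of all genes. At an unadjusted p under 0.05, 27 of the 34 were lower and 0 higher, while 7.59% of all genes were lower. DESeq2 gave an adjusted p to 28 of the 34 and called 22 lower and 0 higher, against 19.7% of the 1079 genes for which it gave one. Both SRF-OE libraries lay below all 3 GFP libraries for 29 of the 34, a pattern found in 17.3% of all genes tested.

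Without the library labelled GFP1, 33 of the 34 were again negative, with a median of -0.63 beside 0.04 for all 13397 genes tested. Pdpr and Got2 passed the adjusted cutoff as lower and 0 passed as higher, where 0.970% of all genes passed as lower and 1.98% as higher. A further 23 of the 34 had an adjusted p between 0.05 and 0.1, beside 1810 of the 13397 genes, counted in either direction. At an unadjusted p under 0.05, 29 were lower, beside 14.0% of all genes, and DESeq2 called 27 lower, beside 6.16%. Both SRF-OE libraries lay below GFP replicates 2 and 3 for 31 of the 34, beside 30.2% of all genes. The library labelled GFP1 fell between the mean of SRF-OE and the mean of GFP replicates 2 and 3 for 30 of the 34, and for 50.8% of all genes.

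**Figure D2:**
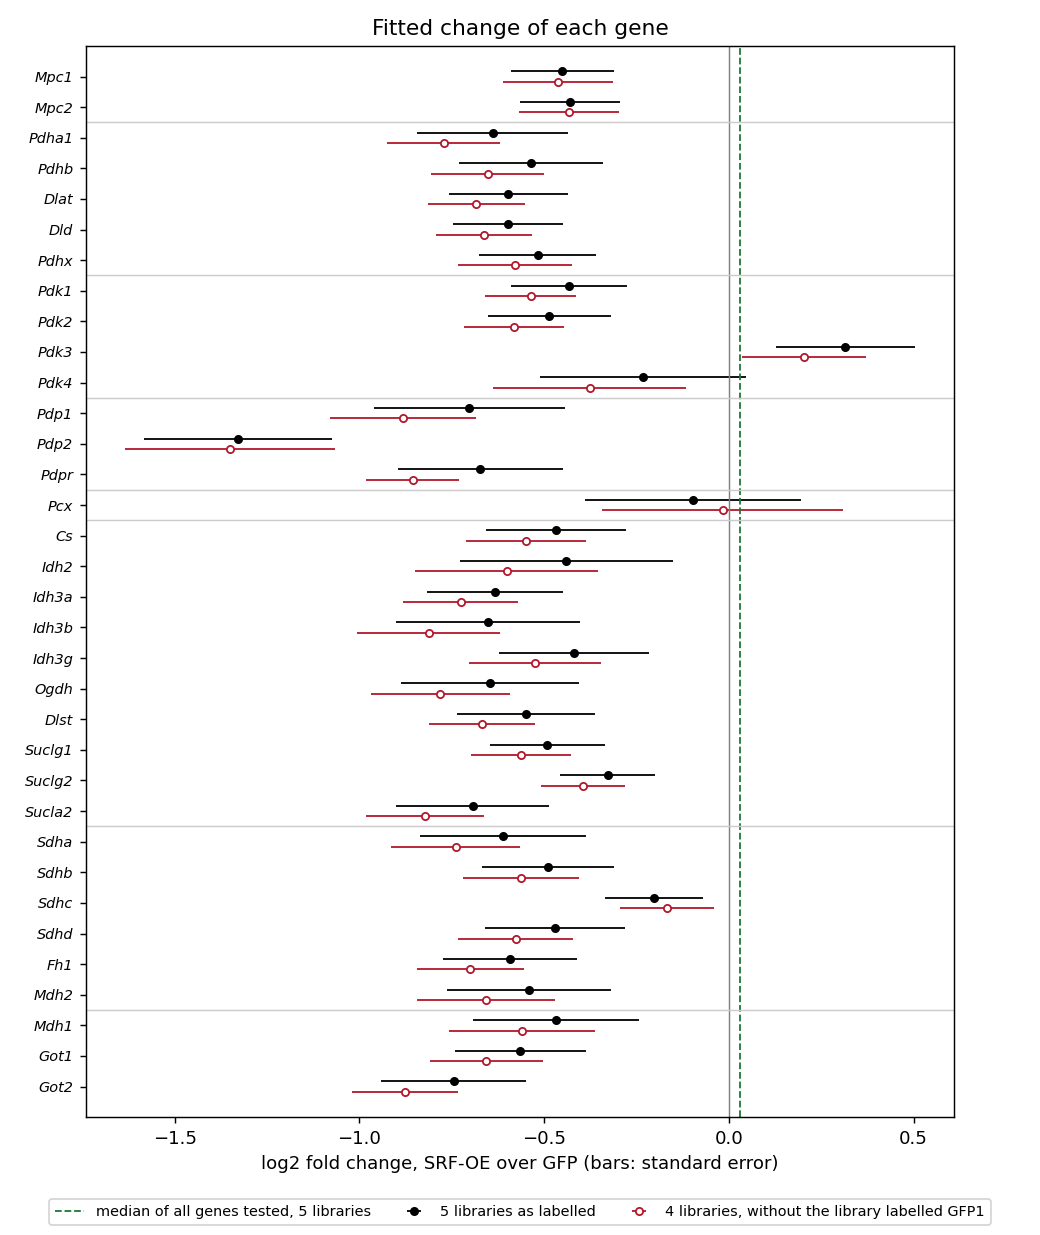
Fitted log2 fold change of each gene, SRF-OE over GFP, with its standard error as bars. Filled points use the 5 libraries as labelled and open points the 4 libraries without the library labelled GFP1; 33 of 34 points lie left of 0 in each fit, and the dashed line marks the median of all genes at 0.03.

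The sequence before the start of these genes was read to see what the group shares apart from its level. RefSeq windows of GRCm38.p6, from 250 bases before to 50 bases after a transcript start, were given for 31 of the 34 genes. A CArG box, the motif that SRF binds, was in the windows of 0 of these 31 genes and of 1.64% of the 9745 tested genes with a window. AAGGTCA, the element of the estrogen-related receptors, which act on mitochondrial genes, was in 3 (9.68%, beside 3.83%): Ogdh, Sdhd and Got1. CCGGAAG, a site of the ETS factor GABPA, was in 6 (19.4%, beside 18.7%): Mpc1, Idh3b, Idh3g, Dlst, Sdhb and Sdhd. GCGCATG, the core of an NRF1 site, was in 2 (6.45%, beside 7.61%): Ogdh and Sdhb. A gene can have several windows, and Ogdh had 6 of the 40 read here. Per window, AAGGTCA was in 3 of the 40, beside 4.72% of all 32851 windows. CCGGAAG was in 6 of the 40 (beside 8.86%) and GCGCATG in 3 (beside 3.91%). Both strands were searched, and CCGGAAG and AAGGTCA can share their AAG; a match is a description of letters, not a bound site, and no match speaks only for this window.

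Upstream stretches of 4 genes are shown, each ending at the base before the gene's start, in the direction of the gene. Got2 (chr8:95888402-95888551, minus strand) and Pdpr (chr8:111094495-111094608, plus strand) are the genes called with 4 libraries and hold none of these motifs, while Sdhb (chr4:140961121-140961270, plus strand) and Sdhd (chr9:50603850-50603999, minus strand), subunits of one complex, each hold 1 here; capitals mark the NRF1 core in Sdhb and the GABPA site in Sdhd, both on the opposite strand.
Got2: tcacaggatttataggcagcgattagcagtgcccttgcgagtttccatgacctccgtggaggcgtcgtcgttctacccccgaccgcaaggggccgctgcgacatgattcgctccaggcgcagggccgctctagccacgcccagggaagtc
Pdpr: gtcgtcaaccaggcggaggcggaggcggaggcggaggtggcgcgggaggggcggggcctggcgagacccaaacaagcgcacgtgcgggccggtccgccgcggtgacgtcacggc
Sdhb: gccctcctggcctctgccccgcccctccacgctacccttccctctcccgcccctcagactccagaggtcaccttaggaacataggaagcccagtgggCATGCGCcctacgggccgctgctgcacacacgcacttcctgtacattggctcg
Sdhd: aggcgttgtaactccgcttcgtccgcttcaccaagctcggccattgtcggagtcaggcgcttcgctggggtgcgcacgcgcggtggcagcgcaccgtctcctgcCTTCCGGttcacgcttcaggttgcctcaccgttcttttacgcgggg

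Both subunits of the pyruvate carrier were lower in SRF-OE by a like amount. Mpc1 was at 181 and 192 CPM in SRF-OE, at 249 CPM in the library labelled GFP1, and at 229 and 286 CPM in GFP replicates 2 and 3. Mpc2 was at 410 and 360 CPM in SRF-OE, at 511 CPM in the library labelled GFP1, and at 504 and 539 CPM in GFP replicates 2 and 3. Neither gene overlapped between groups, with SRF-OE lower, as in 17.3% of all genes tested. Unlike most of the 34, their level in the library labelled GFP1 was within the range of the other GFP libraries. The log2 fold changes were -0.45 (standard error 0.14) for Mpc1 and -0.43 (standard error 0.14) for Mpc2, and -0.46 and -0.43 with 4 libraries; their edgeR adjusted p was 0.353 with 5 libraries and 0.112 and 0.108 with 4. An antisense transcript annotated over Mpc1, 4930506C21Rik, shares 187 bases (12.7%) of its exons, and whether counting used strand is not given in the sources used here.

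All 5 subunits of the PDC were lower, in a narrow range of log2 fold changes from -0.64 to -0.52. Pdha1, the E1 alpha subunit that the kinases phosphorylate, was at 832 and 729 CPM in SRF-OE, at 970 CPM in the library labelled GFP1, and at 1322 and 1355 CPM in GFP replicates 2 and 3. Its log2 fold change was -0.64 (standard error 0.20, edgeR adjusted p = 0.353), and -0.77 (standard error 0.15, edgeR adjusted p = 0.0543) with 4 libraries, so it stood just outside the cutoff there. Dlat, the E2 acetyltransferase, and Dld, the E3 dehydrogenase that the 2-oxoglutarate complex also uses, had log2 fold changes of -0.60 each. Pdhb, the E1 beta subunit, had -0.53 and Pdhx, which docks E3 onto the core, -0.52. With 4 libraries these 4 genes had -0.68, -0.66, -0.65 and -0.58 in the same order, with edgeR adjusted p from 0.0536 to 0.0815. None of the 5 overlapped between SRF-OE and the 3 GFP libraries, with SRF-OE lower, a pattern found in 17.3% of all genes tested. Map3k15 lies antisense to Pdha1 over 603 bases (21.2% of Pdha1's exons), and Pdhb has a processed pseudogene, Gm6123, of 97.0% identity over 1079 bases, so both counts may hold or lose some reads.

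Of the 4 kinases 3 had negative and 1 a positive log2 fold change, and none passed in either fit. Pdk2, which with Pdk4 made up most of the kinase RNA per length in every library, was at 462 and 415 CPM in SRF-OE, at 524 CPM in the library labelled GFP1, and at 672 and 645 CPM in GFP replicates 2 and 3. Pdk1, the kinase known as a target of hypoxia signaling, was at 151 and 134 CPM in SRF-OE, at 162 CPM in the library labelled GFP1, and at 213 and 201 CPM in GFP replicates 2 and 3. Both were below every GFP library in SRF-OE, as were 17.3% of all genes tested. The log2 fold changes were -0.49 (standard error 0.17) for Pdk2 and -0.43 (standard error 0.16) for Pdk1, with edgeR adjusted p of 0.0654 and 0.0648 with 4 libraries.

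Pdk4 was at 627 and 775 CPM in SRF-OE, at 643 CPM in the library labelled GFP1, and at 1134 and 694 CPM in GFP replicates 2 and 3. The groups overlapped, and the highest value came from GFP replicate 2 alone. The log2 fold change was -0.23 (standard error 0.28, edgeR adjusted p = 0.705), and it was 0.07 when GFP replicate 2 was left out. Pdk3 was the 1 gene of the 34 that was higher in both SRF-OE libraries, at 23.5 and 25.4 CPM against 16.4 CPM in the library labelled GFP1 and 23.4 and 19.0 CPM in GFP replicates 2 and 3. The gap to GFP replicate 2 was small, and the log2 fold change of 0.32 (standard error 0.19, edgeR adjusted p = 0.453) did not pass, nor did the 0.20 (edgeR adjusted p = 0.46) with 4 libraries. Both SRF-OE libraries lay above all 3 GFP libraries in 2215 of all 13754 genes tested. Pdk3 is on chromosome X, as are Pdha1 and Idh3g. The libraries with Xist had 23.5 and 23.4 CPM of Pdk3, and those without had 25.4, 16.4 and 19.0 CPM.

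Within the summed kinase RNA, counted per length, Pdk2 made up 47.8% and 41.1% in SRF-OE and 50.6%, 43.8% and 53.3% in the GFP libraries in order of replicate number. Pdk4 made up 42.5% and 50.3% in SRF-OE and 40.7%, 48.4% and 37.6% in GFP. Pdk1 held 5.82% to 7.32% in all 5 libraries. The ranges of Pdk1, Pdk2 and Pdk4 overlapped between groups. Pdk3 was the smallest part, at 2.75% and 2.84% in SRF-OE and 1.73% to 1.79% in GFP, a difference noticed in the values and given without a test.

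The genes of the PDC phosphatase had the lowest median of any role, a log2 fold change of -0.70 with 5 libraries and -0.88 with 4. Pdp1, the calcium-stimulated catalytic subunit, was at 57.4 and 42.6 CPM in SRF-OE, at 59.3 CPM in the library labelled GFP1, and at 103 and 81.3 CPM in GFP replicates 2 and 3. Pdp2, the calcium-insensitive isoform, was at 4.05 and 3.41 CPM in SRF-OE, at 8.98 CPM in the library labelled GFP1, and at 7.94 and 11.2 CPM in GFP replicates 2 and 3. Pdpr, the regulatory subunit that restrains PDP1 (chromosome 8, 111094609 to 111139781, GRCm38.p6), was at 42.8 and 42.1 CPM in SRF-OE, at 48.9 CPM in the library labelled GFP1, and at 74.1 and 80.1 CPM in GFP replicates 2 and 3. For all 3 genes both SRF-OE libraries were below every GFP library, as they were for 17.3% of all genes tested. For Pdp1 and Pdpr the library labelled GFP1 lay near SRF-OE, and for Pdp2 it lay among the GFP libraries.

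Pdp2 had the most negative log2 fold change of the 34, -1.33 (standard error 0.25), or 39.8% of the GFP level, with an edgeR adjusted p of 0.353. With 4 libraries it was -1.35 (standard error 0.28, edgeR adjusted p = 0.059). It is also the gene with the fewest counts, the only one with under 100 counts in a library. Pdp1 had -0.70 (standard error 0.26, edgeR adjusted p = 0.357), and -0.88 (edgeR adjusted p = 0.0633) with 4 libraries. Pdpr had -0.67 (standard error 0.22, edgeR adjusted p = 0.353) with 5 libraries. With 4 libraries Pdpr had a log2 fold change of -0.86 (standard error 0.13, edgeR adjusted p = 0.0473), or 55.3% of the GFP level, and passed the cutoff. Pdpr shares 90 bases (1.82%) of its exons with the antisense gene 9430091E24Rik.

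Pcx, pyruvate carboxylase, which turns pyruvate into oxaloacetate instead of acetyl-CoA, was at 15.5 and 24.6 CPM in SRF-OE, at 23.5 CPM in the library labelled GFP1, and at 15.3 and 25.7 CPM in GFP replicates 2 and 3. The low values were those of replicate 2 in both groups, which are also the libraries with Xist, and the groups overlapped fully. The log2 fold change was -0.10 (standard error 0.29, edgeR adjusted p = 0.89), and its sign changed when SRF-OE replicate 2 or GFP replicate 3 was left out.

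From citrate to succinate, 10 of the 34 genes were measured and all 10 had negative log2 fold changes, with a median of -0.52 and a range of -0.69 to -0.33. Sucla2, the ADP-forming beta subunit of succinyl-CoA synthetase, was at 813 and 687 CPM in SRF-OE, at 976 CPM in the library labelled GFP1, and at 1296 and 1367 CPM in GFP replicates 2 and 3. Idh3b, a regulatory subunit of NAD-dependent isocitrate dehydrogenase, was at 716 and 520 CPM in SRF-OE, at 732 CPM in the library labelled GFP1, and at 1046 and 1133 CPM in GFP replicates 2 and 3. Ogdh, the E1 subunit of the 2-oxoglutarate dehydrogenase complex, was at 2627 and 2622 CPM in SRF-OE, at 3268 CPM in the library labelled GFP1, and at 4193 and 4861 CPM in GFP replicates 2 and 3. In each of the 3 genes both SRF-OE libraries were lowest, though Idh3b in SRF-OE replicate 2 nearly met the library labelled GFP1. Their log2 fold changes were -0.69 (standard error 0.21), -0.65 (standard error 0.25) and -0.65 (standard error 0.24), each with an edgeR adjusted p of 0.353 to 0.357, and with 4 libraries -0.82, -0.81 and -0.78, with edgeR adjusted p of 0.0534, 0.0685 and 0.069.

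The other subunits of these enzymes followed with smaller values. Idh3a, the catalytic subunit of the NAD-dependent enzyme, had a log2 fold change of -0.63 and Idh3g, its other regulatory subunit, -0.42. Dlst, the E2 subunit that works with Ogdh, had -0.55, and Cs, citrate synthase, which joins acetyl-CoA to oxaloacetate, -0.47. Suclg1, the shared alpha subunit of succinyl-CoA synthetase, had -0.49 and Suclg2, the GDP-forming beta subunit, -0.33, the value nearest to 0 in this stretch; Suclg2 also has a processed pseudogene, Gm15163, of 98.9% identity over 1302 bases. Idh2, the NADP-dependent isocitrate dehydrogenase, had -0.44 (standard error 0.29), with 1990 and 1289 CPM in SRF-OE around the 1678 CPM of the library labelled GFP1. With 4 libraries the log2 fold changes were -0.73 for Idh3a, -0.52 for Idh3g, -0.67 for Dlst, -0.55 for Cs, -0.56 for Suclg1, -0.39 for Suclg2 and -0.60 for Idh2, and none passed. Idh2 and Idh3g were the genes of the 10 whose groups overlapped with 5 libraries. With 4 libraries 0 of the 10 overlapped. Both SRF-OE libraries were below the GFP libraries in 17.3% of all genes tested with 5 libraries and in 30.2% with 4.

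From succinate to oxaloacetate, all 6 genes had negative log2 fold changes, with a median of -0.51. Succinate dehydrogenase is also complex II of the respiratory chain. Its flavoprotein Sdha had a log2 fold change of -0.61, its iron-sulfur subunit Sdhb -0.49 and the membrane anchor Sdhd -0.47, each at an unadjusted p under 0.05. The other anchor, Sdhc, was at 526 and 521 CPM in SRF-OE, at 628 CPM in the library labelled GFP1, and at 603 and 576 CPM in GFP replicates 2 and 3. Its SRF-OE libraries were below all 3 GFP libraries by a small margin, and its log2 fold change of -0.20 (standard error 0.13, edgeR adjusted p = 0.483) was the nearest to 0 of the cycle genes. Fh1, fumarase, had -0.59 and Mdh2, mitochondrial malate dehydrogenase, -0.54, and in neither did the groups overlap. Both SRF-OE libraries were below all 3 GFP libraries in 17.3% of all genes tested. With 4 libraries the log2 fold changes were -0.74 for Sdha, -0.56 for Sdhb, -0.58 for Sdhd, -0.17 for Sdhc, -0.70 for Fh1 and -0.66 for Mdh2, and none passed.

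The shuttle enzymes included the other gene that passed with 4 libraries. Got2, the mitochondrial aspartate aminotransferase (chromosome 8, 95864133 to 95888401, GRCm38.p6), was at 559 and 541 CPM in SRF-OE, at 739 CPM in the library labelled GFP1, and at 956 and 1071 CPM in GFP replicates 2 and 3. The SRF-OE libraries nearly coincided, and the library labelled GFP1 was about midway between them and the other GFP libraries. The log2 fold change was -0.74 (standard error 0.20, edgeR adjusted p = 0.353) with 5 libraries. With 4 libraries it was -0.88 (standard error 0.14, edgeR adjusted p = 0.0484), or 54.5% of the GFP level. Got1, its cytosolic partner, had -0.56 and Mdh1, cytosolic malate dehydrogenase, -0.47; with 4 libraries they had -0.66 and -0.56 and did not pass. Got2-ps1 (99.1% identity over 1293 bases) and Gm10874 (98.8% over 1637 bases) are near copies of Got2 that the table does not count, and Gm45760 lies antisense to 379 bases (15.0%) of its exons, so the level of Got2 is uncertain by the reads they could take.

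Per length, levels differed widely between the genes in GFP replicates 2 and 3. Mdh1 had the highest level, 4190 ± 191 TPM (counts per length relative to the sum over all genes; SD, n = 2), followed by Mdh2 at 3890 ± 366 TPM, 2 values that differ by less than the sum of their SDs, and Sdhb at 3100 ± 106 TPM. The kinases Pdk2, at 523 ± 27 TPM, and Pdk4, at 478 ± 173 TPM, were in the middle, above the subunits Dlat (399 ± 12.3 TPM) and Pdhx (226 ± 32.2 TPM). At the other end were Pdk1 at 72.5 ± 4.65 TPM, Pdpr at 47.7 ± 1.52 TPM, Pdp1 at 38.7 ± 7.38 TPM, Pdk3 at 19.1 ± 3.25 TPM and Pdp2 at 4.91 ± 1.08 TPM. Pcx had 8.6 ± 2.9 TPM. The genes that passed with 4 libraries thus came from the low and the middle part of this range, with Got2 at 776 ± 44.8 TPM.

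Ratios of related genes within a library do not depend on how libraries are scaled. Of 10 ratios compared by an exact permutation test, 0 passed after Benjamini-Hochberg adjustment over the 10 (adjusted p from 0.56 to 1.0), a design in which no unadjusted p can be under 0.1. Sucla2 over Suclg2, the ADP-forming over the GDP-forming subunit, was 8.48 and 7.72 in SRF-OE, 9.37 in the library labelled GFP1 and 10.3 and 11.5 in GFP replicates 2 and 3. These groups did not overlap, with a log2 difference of -0.36 (two-sided exact permutation p = 0.2), and -0.43 with 4 libraries. Pdk4 over Pdk2 was 0.89 and 1.22 in SRF-OE and 0.804, 1.11 and 0.704 in the GFP libraries, and overlapped (exact permutation p = 0.4). Pdk1 over Pdk2 varied little, at 0.144 and 0.142 in SRF-OE and 0.136 to 0.14 in GFP, and did not overlap (exact permutation p = 0.1, the smallest possible).

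The remaining fixed ratios gave log2 differences of -0.01 for Mpc1 over Mpc2, 0.06 for Mdh1 over Mdh2, 0.17 for Got1 over Got2, 0.18 for Idh2 over Idh3a, 0.64 for Pdp1 over Pdp2, 0.29 for the 4 kinases over Pdha1 and 0.52 for Pcx over Pdha1. With 4 libraries these were -0.02, 0.09, 0.22, 0.10, 0.45, 0.32 and 0.76 in the same order. Leaving out each library in turn moved Pdp1 over Pdp2 between 0.45 and 0.94 and Pcx over Pdha1 between 0.09, without SRF-OE replicate 3, and 0.95, without SRF-OE replicate 2. Of these ratios, Got1 over Got2 had no overlap between groups. Other ratios were picked after the values were seen and were not tested. Pdk3 over Pdk2 was 0.0575 and 0.0691 in SRF-OE and 0.0354, 0.0395 and 0.0333 in the GFP libraries. Sdhc over Sdhb was 0.367 and 0.397 in SRF-OE, 0.368 in the library labelled GFP1 and 0.309 and 0.273 in GFP replicates 2 and 3. Both phosphatases over the 4 kinases gave 0.034 and 0.0244 in SRF-OE and 0.0357, 0.0387 and 0.0414 in the GFP libraries, so the lower 2 values were those of SRF-OE.

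**Figure D3:**
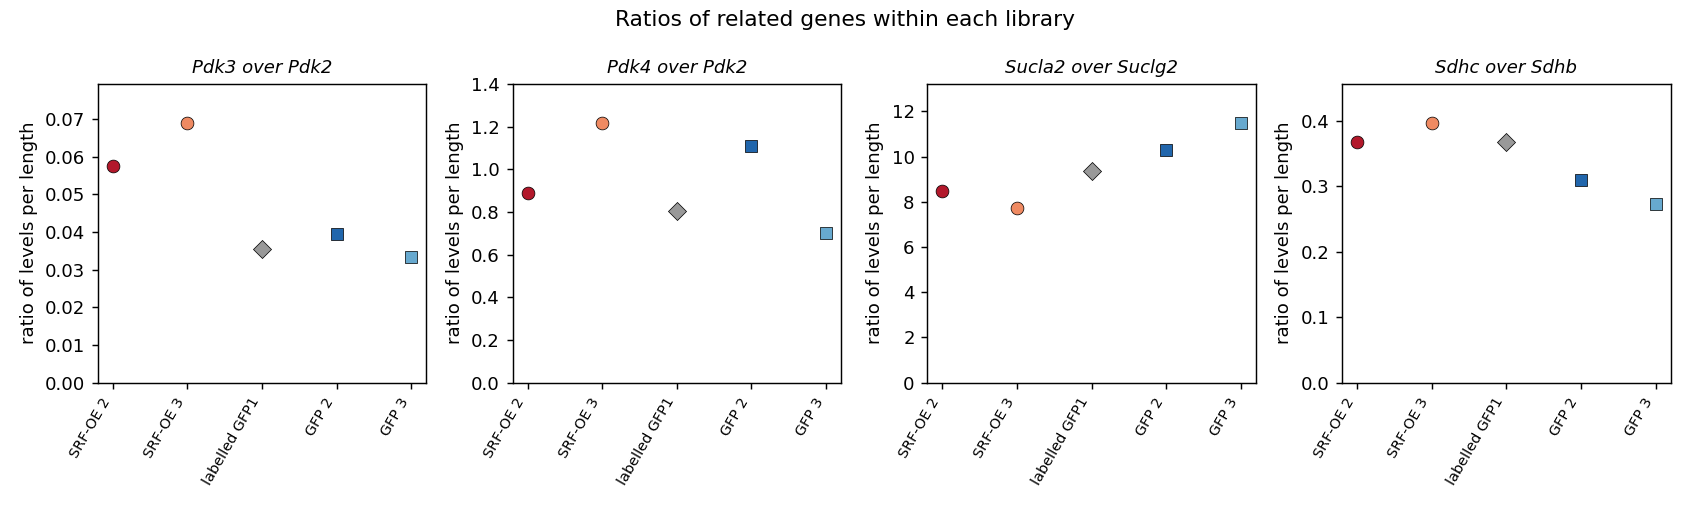
Ratios of related genes per length in each of the 5 libraries, on linear axes that start at 0. Sucla2 over Suclg2 is lower in both SRF-OE libraries (8.48 and 7.72) than in the GFP libraries (9.37 to 11.5), Pdk4 over Pdk2 overlaps, and Pdk3 over Pdk2 (0.0575 and 0.0691 against 0.0333 to 0.0395) and Sdhc over Sdhb were picked after their values were seen and have no test.

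The summed CM markers were lower in both SRF-OE libraries than in all 3 GFP libraries. The sums of endothelial, fibroblast, smooth muscle and pericyte, and leukocyte markers overlapped between these groups. The paper reports lower myofibril genes and higher endothelial, smooth muscle and fibroblast markers under SRF overexpression. A marker sum therefore cannot tell cell numbers from expression per cell. The 12 CM markers, sarcomere, calcium handling and myoglobin genes with Nkx2-5, summed to 113454 and 100367 CPM in SRF-OE, 116509 CPM in the library labelled GFP1 and 146318 and 167582 CPM in GFP replicates 2 and 3. All but Ttn had a negative log2 fold change, with a median of -0.43, beside -0.53 for the 34 genes; 0 passed. The 34 genes over the CM markers gave ratios of 0.246 and 0.249 in SRF-OE and 0.253 to 0.277 in the GFP libraries, a log2 difference of -0.11, where the summed levels alone gave -0.52 for the 34 genes and -0.41 for the CM markers; this ratio was picked after the values were seen and has no test. Endothelial markers (14 of 14 with a higher mean in SRF-OE) summed to 1328 and 543 CPM in SRF-OE and to 1109, 545 and 530 CPM in the GFP libraries. Fibroblast markers (10 of 10 higher) summed to 926 and 462 CPM against 500, 393 and 334 CPM. Smooth muscle and pericyte markers (8 of 9 higher) ranged from 667 to 672 CPM against 532 to 705 CPM, and leukocyte markers (8 of 10 higher) from 17.1 to 44.2 CPM against 13.2 to 36.3 CPM. With 4 libraries the median log2 fold change was -0.55 for the CM markers, 0.81 for endothelial (0.40 with 5 libraries), 0.98 for fibroblast (0.80), 1.14 for smooth muscle and pericyte (0.72) and 0.97 for leukocyte markers (0.44). The fibroblast marker Ddr2 and the smooth muscle marker Tagln then passed as higher, as did 1.98% of all genes tested. All 10 fibroblast markers were above GFP replicates 2 and 3 in both SRF-OE libraries, a pattern found in 4122 of all 13397 genes tested.

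Red cell markers summed to 5.33 to 6.65 CPM in SRF-OE and 0.523 to 3.47 CPM in GFP, with Hba-a1 and Hba-a2 at 0 in all 5 libraries, and Cd52, a leukocyte marker, was at 0 in GFP replicate 2. All markers of other cells together were 1694 to 2976 CPM in SRF-OE and 1440 to 2350 CPM in GFP. Sums over different gene lists do not measure shares of cells, which were not estimated. In SRF-OE replicate 3, where the 34 genes had their lowest sum of the 5 libraries, 24994 CPM, the endothelial markers (543 CPM) were near those of GFP replicates 2 and 3, while the fibroblast markers (462 CPM) and the smooth muscle and pericyte markers (667 CPM) were above them. What part the change in these marker levels has in the lower levels of the 34 genes was not tested.

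**Figure D4:**
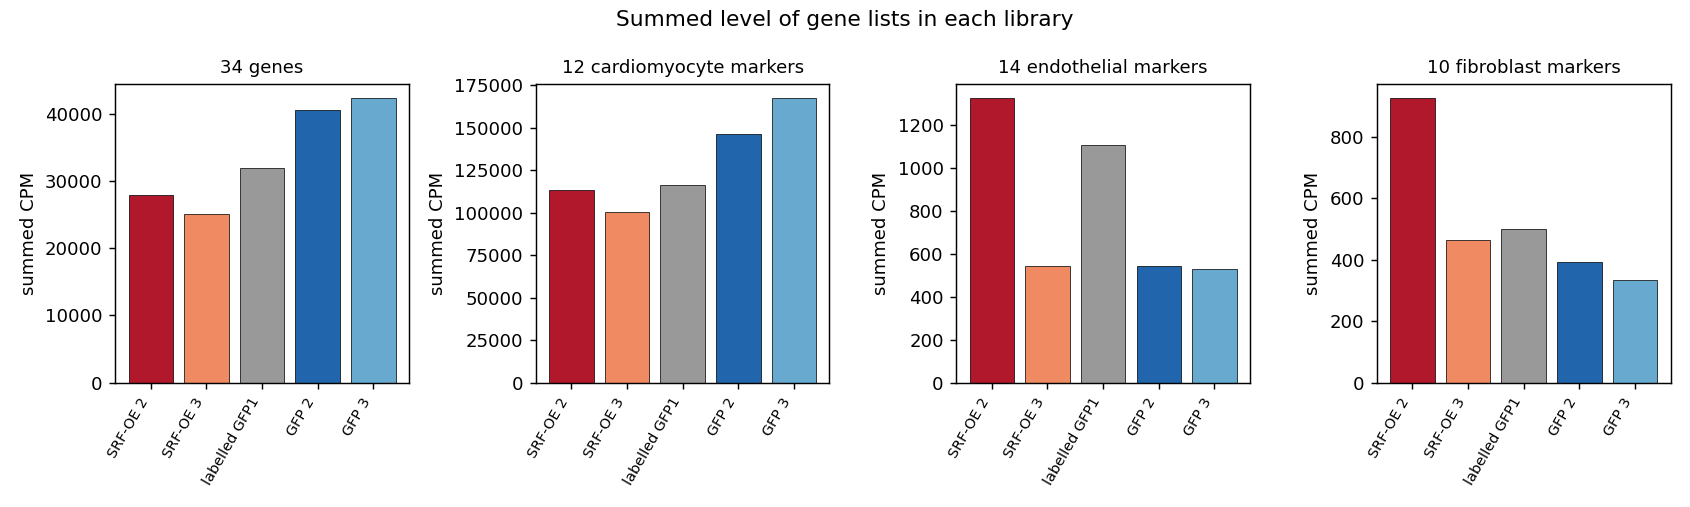
Summed TMM-scaled CPM of the 34 genes and of the CM, endothelial and fibroblast markers in each library, with bars from 0. The 34 genes and the CM markers are lowest in SRF-OE replicate 3 (24994 and 100367 CPM) and the endothelial and fibroblast markers are highest in SRF-OE replicate 2 (1328 and 926 CPM).

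Another 33 genes next to the pathway were read for comparison: other isoforms, malic enzymes and lactate genes, mitochondrial carriers, side entries of carbon, and lipoylation and assembly factors. With 5 libraries 30 of them had a negative log2 fold change, with a median of -0.38, and 0 passed; 14 were lower and 1 higher at an unadjusted p under 0.05, where 7.59% of all genes were lower. With 4 libraries the median was -0.46, 3 passed as lower and 0 as higher, where 0.970% of all genes passed as lower.

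Ogdhl, an isoform of Ogdh, was at 8.9 and 7.96 CPM in SRF-OE, 17.2 CPM in the library labelled GFP1 and 32.6 and 50.1 CPM in GFP replicates 2 and 3. Its log2 fold change, -1.98 (standard error 0.44, edgeR adjusted p = 0.353), was the lowest of these genes, and with 4 libraries it passed at -2.29 (edgeR adjusted p = 0.0423). Me3, a mitochondrial malic enzyme, had -0.66, and passed with 4 libraries at -0.90 (edgeR adjusted p = 0.0473). Slc25a12, the aspartate-glutamate carrier that works with Got2 in the shuttle, had -0.65, and passed with 4 libraries at -0.75 (edgeR adjusted p = 0.0484). Acss1, the mitochondrial acetyl-CoA synthetase, had -0.94 and Ldhb, the heart isoform of lactate dehydrogenase, -0.75, and neither passed. Pck2, mitochondrial PEP carboxykinase, went the other way, at 16.4 and 16.9 CPM in SRF-OE against 11.9, 8.12 and 5.37 CPM in the GFP libraries, a log2 fold change of 0.97 (standard error 0.32, edgeR adjusted p = 0.353) that did not pass with 4 libraries either (edgeR adjusted p = 0.0534).

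Bdh1, a ketone body dehydrogenase, was picked after its values were seen. It was at 5.61 and 44.9 CPM in SRF-OE, 51.9 CPM in the library labelled GFP1 and 0.78 and 1.18 CPM in GFP replicates 2 and 3. The library labelled GFP1 had the highest value, so the log2 fold change was 0.48 (standard error 1.63) with 5 libraries and 4.73 (standard error 1.06, edgeR adjusted p = 0.0632) with 4. Copies of pathway genes used in testis, Pdha2, Got1l1 and Mdh1b, had at most 2 counts in any library. Csl, a paralog of Cs, had 24 to 54 counts per library and a log2 fold change of -0.27 (standard error 0.35, edgeR adjusted p = 0.731).

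**Figure D5:**
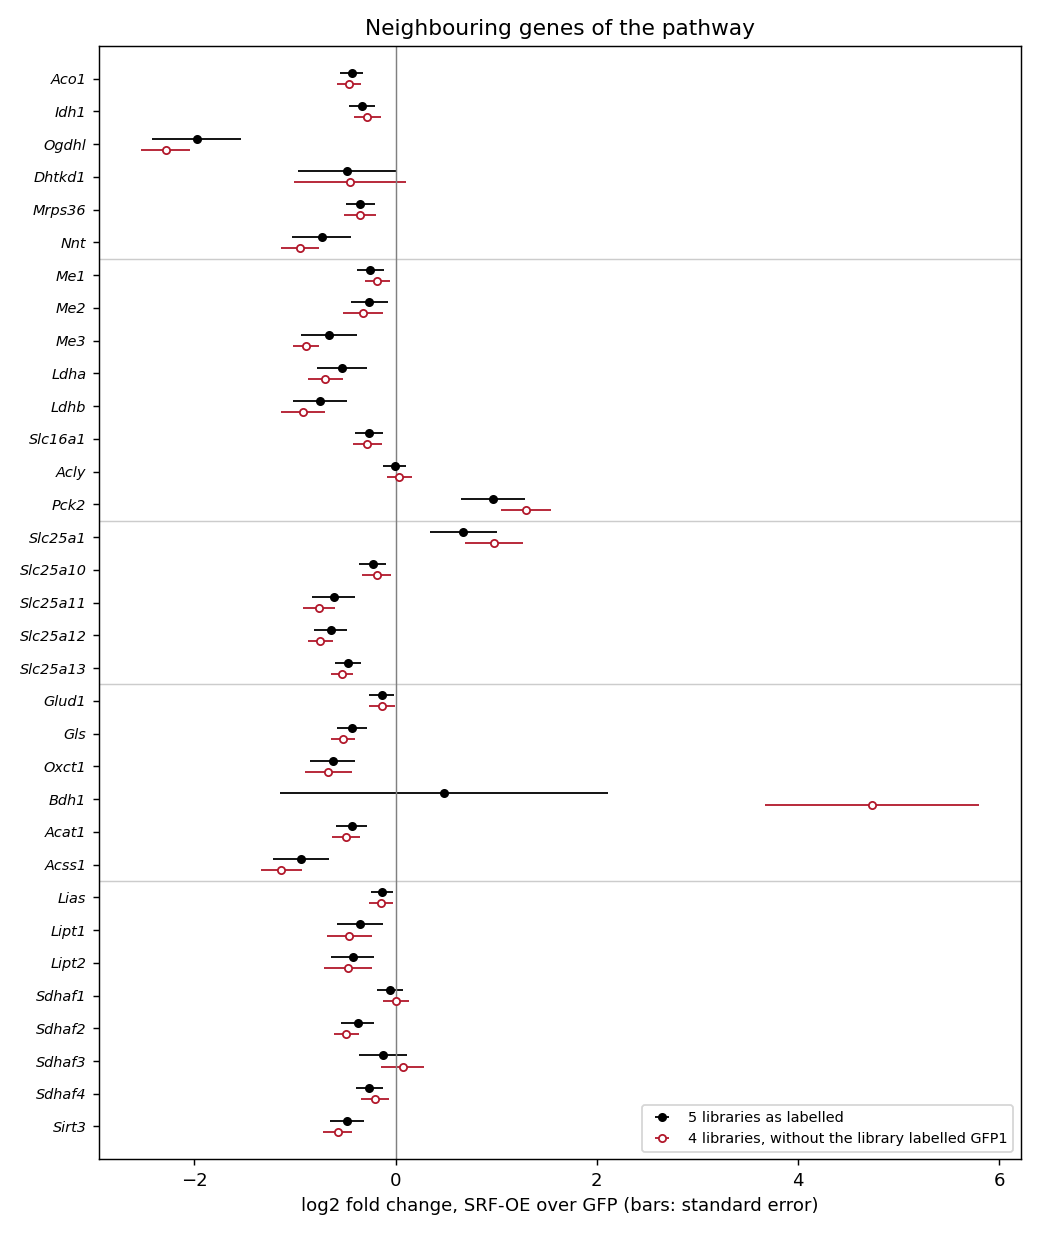
Fitted log2 fold change of the 33 neighbouring genes, SRF-OE over GFP, with standard errors as bars, for the 5 libraries as labelled (filled) and the 4 without the library labelled GFP1 (open). Ogdhl lies farthest to the left (-1.98 and -2.29), Pck2 lies right of 0, and Bdh1 moves from 0.48 to 4.73 between the fits.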

How the data were processed

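RNA-seq libraries from amplified low-input cDNA (SMART-Seq, Nextera XT) of sorted GFP+ CMs were compared between SRF-OE and GFP; without molecular identifiers, reads are not independent molecules. The submitters' processing notes name CASAVA 1.8, STAR 2.5.3a, featureCounts and Subread 1.5.2, with mm10. The authors deposited raw read counts per gene, not normalized. Gene lengths fill the column named for SRF-OE replicate 1 (0 zeros; 52.3% of 20934 genes within 5% of an annotated exon length) and that column served only as length for TPM. Columns were assigned by name, and 0 columns of values were left unused. Strand and multimapping settings are not given in the sources used here.

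Counts were fitted with edgeR 4.0.16 in R 4.3.3 (filterByExpr, TMM, glmQLFit, glmQLFTest) over all genes, with Benjamini-Hochberg adjustment and a cutoff of 0.05, without covariates. Standard errors were taken as the log2 fold change over the square root of F. DESeq2 1.42.0, other scalings and filters, the replicate block and leaving out each library were the alternatives; those on 4 libraries and total counts without a factor were chosen after seeing the data. The edgeR fits of the 5 and of the 4 libraries, but not the alternatives, were checked on simulated data, where the share of false calls exceeded the cutoff. Near copies were sought with blastn 2.17.0 in GENCODE transcripts (at least 95% identity over 300 bases) and overlaps of at least 50 exon bases in the annotation.

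The members and lists were chosen with earlier results of these data known. Values in every library are given for the carrier, kinases, phosphatases and Pcx, for members called in a fit that leaves out 1 library or blocks on the replicate number, for the 8 with the largest absolute log2 fold change, and, picked after seeing them, for Sdhc. Neighbouring genes are named when called with 5 libraries or without the library labelled GFP1, or when among the 4 largest changes (Bdh1 was picked after seeing its values); 1 gene of these lists is not reported here. The knockout libraries were not analysed here.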

Additional observations from a re-analysis of the deposited data

How the results depend on the processing

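With the 5 libraries, the number of the 34 genes called lower was 0 under edgeR and 22 under DESeq2; it was 0 to 2 when 1 library was left out, with 2 (Pdpr and Got2) without the library labelled GFP1. With 4 libraries the 2 became 27 under DESeq2, 29 with no filter on low counts (1303 of 21407 genes lower in all), 1 with total counts and no scaling factor (61 of 13397), 0 with upper quartile scaling (9 of 13397) and 0 when every library had to reach 10 counts (9 of 12142); the cause was not tested. Total counts with no factor also moved the median log2 fold change of the 34 genes to -0.33 with 5 libraries and -0.40 with 4, as the median of all genes moved by 0.18 and 0.23; 32 and 31 of the 34 then stayed negative.

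Of 408 gene values over 12 settings, 404 kept their direction. Pdk4 ranged from -0.403 to 0.0693 and Pcx from -0.48 to 0.196 over left-out libraries, and Pcx was 0.0873 with total counts and no factor. Over left-out libraries, Mpc1 over Mpc2 ranged from -0.15 to 0.122 and Idh2 over Idh3a from -0.0388 to 0.399; without a change of sign, Pdk4 over Pdk2 ranged from 0.0572 to 0.517 and Pcx over Pdha1 from 0.0921 to 0.951. A fit that leaves 1 SRF-OE library assumes that it varies like the others. The groups share only 2 replicate numbers and the labels do not pair them (correlation of deviations 0.40 for number 2 and -0.07 for number 3). The replicate block is therefore given only here. With 5 libraries it called 4 of the 34 lower (Pdp1, Pdp2, Pdpr and Got2), with 582 genes higher and 432 lower of all 13754. The library labelled GFP1 is alone in its replicate number, so it does not inform the group difference in this fit. The median log2 fold change of the 34 genes under the block was -0.648 with 5 libraries and -0.642 with 4. With 4 libraries it called 3 of the 34 lower, with 547 genes higher and 392 lower of all 13397.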
